A study of Mus musculus with 6 samples.

Results

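Wnt pathway transcripts of the mouse dentate gyrus were compared between libraries labelled as deficient in the m6A reader YTHDF2 and control libraries. The genes were taken by symbol, with no use of their measured values: every protein-coding row of the deposited count table named as a Wnt ligand, a Frizzled receptor, one of the receptors Lrp5, Lrp6, Ror1, Ror2 and Ryk, Porcn or Wls, an Sfrp gene, Znrf3, Rnf43 or an Lgr gene from Lgr4 to Lgr6, a dishevelled gene, a gene of the β-catenin destruction complex, or a TCF/LEF factor. This gave 59 genes out of 54040 in the table, 22058 of them protein-coding. The libraries, 3 under the label cKO and 3 under Ctrl, were all made from total RNA of the dentate gyrus of C57BL/6 mice at postnatal day 40. By their labels the cKO libraries came from dentate gyrus deficient in YTHDF2, a protein that binds N6-methyladenosine in messages and promotes their decay, and the Ctrl libraries from a negative control of the same region. Granule cells are the labelled cell type and the cells named in the series' title, but the labels describe whole-region RNA, name no sorting, and give neither a Cre driver nor an allele. They also do not say whether the replicates were separate animals, so a p-value here weighs a difference only against the spread among the libraries.

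Wnt proteins are lipid-modified by the acyltransferase Porcupine, carried out of the cell by Wntless and bound by Frizzled receptors together with Lrp5 or Lrp6. Dishevelled proteins then relay the signal, the complex of Axin, Apc and Gsk3 stops marking β-catenin for destruction, and β-catenin acts with TCF/LEF factors on transcription, whereas Ror and Ryk receptors and planar polarity proteins serve branches that do not need β-catenin. In the dentate gyrus Wnt signalling is known for its part in the birth and maturation of granule neurons from adult stem cells and in dendrite and synapse growth.

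Gene counts summed to 16794642 to 19190101 per library, and 16928 genes passed the low-count filter and were tested. Levels of 1 gene between libraries are given as CPM, the count relative to the TMM-scaled library total, and levels of different genes as the authors' FPKM, which divides by gene length as well. The log2 fold change is always cKO over Ctrl, ± its standard error, and a gene was called changed at an adjusted p under 0.05 in the quasi-likelihood test of edgeR, with p-values adjusted over all 16928 genes after Benjamini and Hochberg. By that rule 3.95% of the tested genes changed, 3.07% higher and 0.874% lower in cKO. The targeted gene, Ythdf2, stood at 56.8, 56.5 and 54.5 CPM in cKO replicates 1 to 3 and at 37.9, 68.6 and 68.4 CPM in Ctrl replicates 1 to 3, a log2 fold change of -0.06 with an edgeR adjusted p of 0.882. The library labelled Ctrl replicate 1 thus lay below every cKO library for the targeted gene, so it went against its label, and each member called below was also called without it. As a group the cKO libraries were not called lower for Ythdf2 either, and since the labels do not say which part of the gene was targeted, its total count does not show that they lacked YTHDF2. All 12 granule neuron markers examined passed the filter, with a summed level of 3575 to 3756 CPM in cKO and 3387 to 3589 CPM in Ctrl; Pdzd2 (0.42) and Pitpnm2 (0.27) were called higher in cKO and Stxbp6 (-0.29) lower. Markers of other cells were present too, and some moved with the groups. The summed level of 15 microglial markers was 405 to 427 CPM in cKO and 472 to 509 CPM in Ctrl. Of the 14 tested, 6 were called lower, and their median log2 fold change was -0.30. The 12 astrocyte markers summed to 6629 to 6657 CPM in cKO and 7036 to 7237 CPM in Ctrl, with 3 lower and a median of -0.11. The 13 markers of immature neurons and progenitors summed to 454 to 475 CPM in cKO and 490.0 to 524 CPM in Ctrl, with a median of -0.10 and none called by edgeR, although 5 had an unadjusted p under 0.05. The mitochondrial share of the counts was lower in every cKO library, at 4.21% to 4.44%, than in every Ctrl library, at 4.597% to 5.19%. In such bulk tissue fewer cells of a type and less RNA per cell cannot be told apart, and the part of these cells and of the mitochondrial share in the results on Wnt genes was not tested.

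Of the 59 genes 48 passed the filter and 11 did not. Between the groups 3 of the 48 changed, or 6.25%, beside 3.95% of all tested genes. All 3 were higher in cKO, where 3.07% of all tested genes were called higher. They were the dishevelled genes Dvl1 and Dvl2 and the acyltransferase gene Porcn, each by under a 1.3-fold difference. No member was called lower by edgeR, although 2 with an unadjusted p under 0.05 had negative log2 fold changes. DESeq2 called those 2 lower and limma-voom 0. In all, 8 members had an unadjusted p under 0.05, where 17.6% of all tested genes did. Log2 fold changes were positive for 28 members and negative for 20, with a median of 0.05 beside 0.00 over all tested genes. The groups did not overlap for 10 members, 8 with every cKO library above every Ctrl library and 2 with every cKO library below, or 20.8% against 22.9% of all tested genes, of which 12.5% lay above and 10.5% below.

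Dishevelled proteins are cytoplasmic scaffolds that polymerise at the activated receptor and recruit Axin, and all 3 mouse genes were expressed. Both Dvl1 and Dvl2 were higher in cKO, and all 3 genes had every cKO library above every Ctrl library. Because the 2 changed genes belong to the same family, the RefSeq sequences around their transcription starts (GRCm38.p6, 250 bases before to 50 after, plus strand, 5′ to 3′) are shown with the GC box bound by Sp1, GGGCGG on either strand, in capitals.
Dvl1, chr4:155847152-155847451: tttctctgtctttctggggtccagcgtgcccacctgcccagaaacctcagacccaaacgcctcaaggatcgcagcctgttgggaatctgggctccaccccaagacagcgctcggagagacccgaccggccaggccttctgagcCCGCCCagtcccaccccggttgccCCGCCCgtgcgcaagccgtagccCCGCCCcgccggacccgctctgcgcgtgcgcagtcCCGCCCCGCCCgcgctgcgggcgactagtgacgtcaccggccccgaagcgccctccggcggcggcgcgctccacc
Dvl2, chr11:70000342-70000641: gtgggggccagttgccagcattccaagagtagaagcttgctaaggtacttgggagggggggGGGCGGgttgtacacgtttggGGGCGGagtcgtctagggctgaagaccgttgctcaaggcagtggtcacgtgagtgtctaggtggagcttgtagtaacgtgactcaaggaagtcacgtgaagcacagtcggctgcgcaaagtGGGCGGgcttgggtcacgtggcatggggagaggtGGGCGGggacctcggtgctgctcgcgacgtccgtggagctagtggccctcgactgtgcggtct
The Dvl1 window holds 5 GC boxes, all read on the opposite strand as CCGCCC and 2 of them overlapping by 1 base, in sequence of 72.3% GC. The Dvl2 window holds 4, all as GGGCGG, in sequence of 62.0% GC. Neither window holds the TCF/LEF letters CTTTGAA or CTTTGAT on either strand. A GC box was present in 35.7% of 32851 RefSeq windows of this length and in 72.7% of the 55 windows found for 42 of the members, while the median GC content was 52.7% over all windows and 67.3% over those of the members. The TCF/LEF letters were present in 8.65% of all windows and 5.45% of the members' windows.

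Dvl1 (ENSMUSG00000029071, plus strand of chromosome 4 from 155847402 to 155859303, GRCm38) stood at 109, 109.8 and 125 CPM in cKO replicates 1 to 3 and at 94.7, 91.7 and 95.5 CPM in Ctrl replicates 1 to 3. Every cKO library lay above every Ctrl library, and cKO replicate 3 stood apart from the other two. The means were 115 ± 9.32 CPM in cKO and 94.0 ± 2.0 CPM in Ctrl (SD, n = 3 libraries each), a log2 fold change of 0.29 ± 0.06 or 1.22-fold (edgeR adjusted p = 0.0107). Dvl2 (ENSMUSG00000020888, plus strand of chromosome 11 from 70000595 to 70012301) stood at 39.5, 43.7 and 47.6 CPM in cKO and at 31.5, 33.8 and 35.7 CPM in Ctrl. Again the groups did not overlap, and cKO replicate 3 was the highest. The means were 43.6 ± 4.04 CPM in cKO and 33.7 ± 2.13 CPM in Ctrl, a log2 fold change of 0.37 ± 0.08 or 1.3-fold (edgeR adjusted p = 0.0127).

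Dvl3 (chromosome 16, 20516982 to 20532520) did not pass the test. It stood at 53.1, 51.7 and 52.1 CPM in cKO and at 47.4, 51.2 and 47.0 CPM in Ctrl. All cKO libraries were above all Ctrl libraries, but the lowest cKO and the highest Ctrl library were close together. Its log2 fold change was 0.11 ± 0.06, with an edgeR adjusted p of 0.341. Whether Dvl3 differed from its relatives in response was not tested. Summed over the family, dishevelled transcripts reached 40.3 ± 2.37 FPKM in cKO and 34.0 ± 0.485 FPKM in Ctrl. Dvl1 supplied 55.9% ± 1.38 of that sum over the 6 libraries, Dvl3 27.7% ± 2.01 and Dvl2 16.4% ± 1.04, so the gene with the largest fold change was the least abundant of the family.

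**Figure D1:**
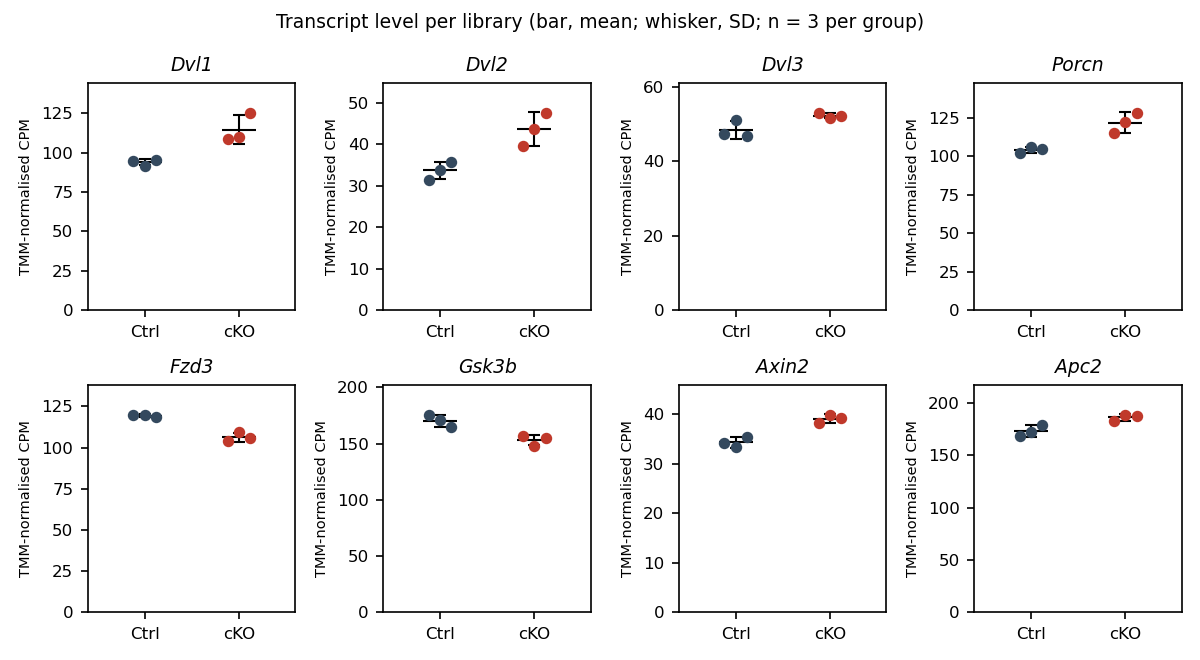
Level of 8 members in each library, in TMM-normalised CPM on axes that start at 0, with Ctrl on the left and cKO on the right. Points are libraries, horizontal bars the mean and whiskers the SD over 3 libraries. Dvl1, Dvl2 and Porcn, the called members, lie higher in every cKO library than in any Ctrl library, and Fzd3 and Gsk3b, which were not called, lie lower.

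Porcn encodes the endoplasmic reticulum enzyme that attaches palmitoleate to Wnt ligands, without which they are not secreted. Porcn (ENSMUSG00000031169, minus strand of chromosome X from 8193848 to 8206525) stood at 115, 122 and 128 CPM in cKO and at 102, 106 and 105 CPM in Ctrl. The groups did not overlap, and cKO replicate 3 was once more the highest. The means were 122 ± 6.72 CPM in cKO and 104 ± 2.05 CPM in Ctrl, a log2 fold change of 0.23 ± 0.05 or 1.17-fold (edgeR adjusted p = 0.0184). Since Porcn is X-linked, the sex-linked transcripts bear on its comparison: Xist, which is transcribed from an inactive X chromosome, had 1 to 8 counts in every library, and the Y-linked Ddx3y stood between 67.2 and 74.6 CPM in all 6. By these 2 transcripts all 6 libraries, in both groups, looked male. Of the other Y-linked genes examined, Kdm5d was called higher in cKO, at 0.22 (edgeR adjusted p = 0.0487), Eif2s3y was at 0.42 (adjusted p = 0.130) and Uty at 0.06 (adjusted p = 0.731). Wls, the carrier that takes the modified ligand to the cell surface, stood at 9.53, 9.68 and 11.2 CPM in cKO and at 9.18, 10.7 and 12.5 CPM in Ctrl. These groups overlapped, and the log2 fold change was -0.09 ± 0.13 (edgeR adjusted p = 0.780). The Wls transcript was also far less abundant than that of Porcn, at 1.18 against 37.5 FPKM. By FPKM Porcn was the second most abundant of all 59 genes. The size of this gap depends on the deposited gene length, 8792 bases for Wls and 3000 for Porcn. In CPM the means of Wls and Porcn were 10.1 and 122 in cKO and 10.8 and 104 in Ctrl.

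None of these 3 genes was called without cKO replicate 3. The edgeR adjusted p-values were then 0.0685 for Dvl1, 0.095 for Dvl2 and 0.125 for Porcn, while their log2 fold changes were 0.22, 0.30 and 0.19. The number of all genes called fell from 668 to 214 in the same fit. Whether the loss of these calls came from that library or from having fewer libraries was not tested. Porcn was also not called without cKO replicate 2 (0.0627) or Ctrl replicate 3 (0.0504), whereas Dvl1 and Dvl2 were called in the other 5 fits that left out 1 library. Across all 17 alternatives Dvl2 was called in 14, Dvl1 in 13 and Porcn in 11, and none changed sign.

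**Figure D2:**
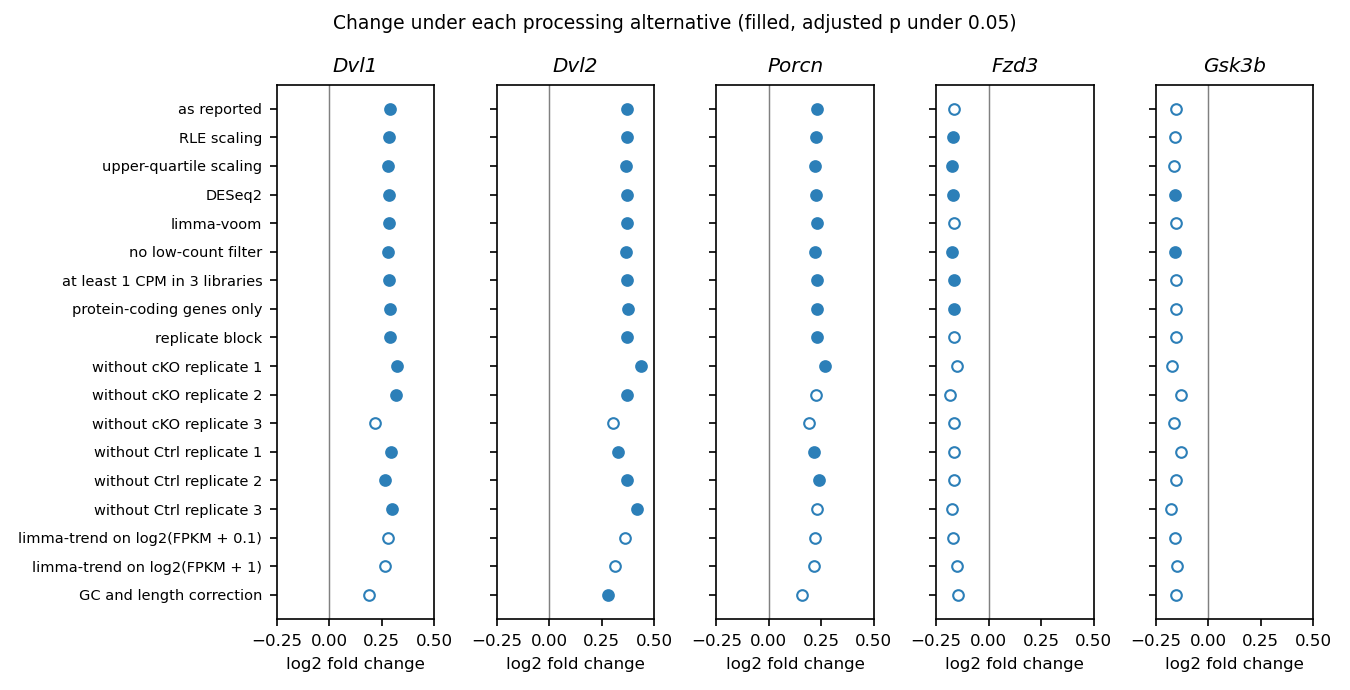
Log2 fold change (cKO over Ctrl, horizontal axes) of 5 members as reported and under each of the 17 processing alternatives, with filled points for an adjusted p under 0.05 and open points for the rest. Dvl1 ranges from 0.19 to 0.32, Dvl2 from 0.28 to 0.44 and Porcn from 0.16 to 0.27, and the points of Fzd3 and Gsk3b all lie below 0.

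The 3 called members had transcripts of higher GC content than the median member, but some uncalled members were richer still. Among these were Wnt10a (63.8%), Fzd9 (62.2%) and Apc2 (61.4%). The longest coding transcript had a GC content of 60.6% for Dvl1, 57.2% for Dvl2 and 57.4% for Porcn, where the median was 53.3% over the 48 tested members and 49.8% over all tested genes, and the genes called higher in the whole table had a median of 56.6%. A further fit used offsets per library for transcript GC content and for the deposited gene length. In it Dvl2 kept its call with a log2 fold change of 0.28 (edgeR adjusted p = 0.0461). Dvl1 then stood at 0.19 with an adjusted p of 0.0843, and Porcn at 0.16 with an adjusted p of 0.0972, so neither was called. The corrected fit called 2.62% of all tested genes, 289 higher and 155 lower against 520 and 148 before, and the median of the 48 members went from 0.05 to 0.02. Across the 48 members the Spearman correlation between GC content and log2 fold change was 0.12, against 0.24 across 16710 tested genes with a known transcript, values given as a description because genes of the same libraries are not independent.

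**Figure D3:**
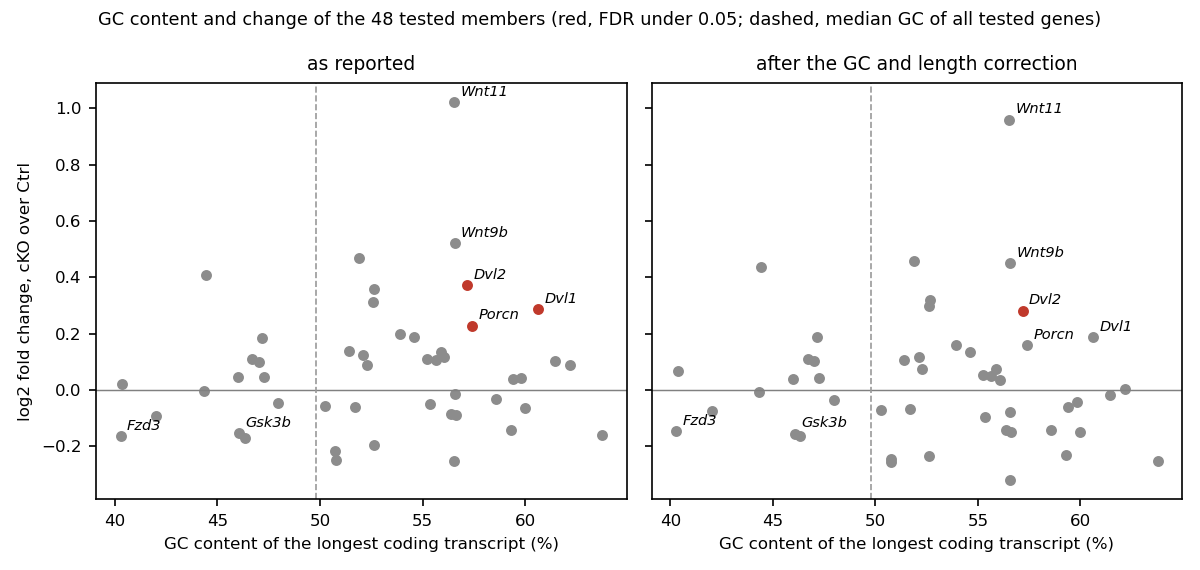
Log2 fold change (cKO over Ctrl, vertical axis) of the 48 tested members against the GC content of the longest coding transcript in percent (horizontal axis), as reported on the left and after the GC and length correction on the right. Points are genes, red points were called, and the dashed line marks the median of all tested genes at 49.8%. The 3 called members lie to the right of that line, and only Dvl2 is red on the right-hand side.

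YTHDF2 binds methylated adenosine mostly in sequences such as GGACT, so the letters were counted in the same transcripts. Dvl1 holds 5, or 1.49 per kb, Dvl2 holds 9, or 1.79 per kb, and Porcn holds 0. The median was 1.19 per kb over the tested members and 1.05 per kb over all tested protein-coding genes. Such letters describe the sequence only, and methylation itself was not measured here.

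Whether neighbouring genes contributed to these counts was not tested, and the sources used here do not say whether the counting used strand. The 3′ end of Dvl2 lies opposite that of Acadvl, a mitochondrial acyl-CoA dehydrogenase gene, over 2119 bases. Acadvl stood at 25.1 ± 1.12 CPM in cKO and 21.1 ± 1.90 CPM in Ctrl, also with every cKO library above every Ctrl library (log2 fold change 0.25, edgeR adjusted p = 0.107), and without strand the reads of the shared stretch cannot be told apart. Dvl1 shares 36 bases with the taste receptor gene Tas1r3, which stood at 2.32 ± 0.526 and 1.53 ± 0.0969 CPM, and Porcn overlaps no other gene of the table. Of all 59 genes 28 overlap another annotated gene, 9 of them one with at least 100 counts, and all of these 9 lie on the opposite strand.

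Among ligands the message for Wnt7b, a ligand known from cultured rodent neurons to promote hippocampal dendrite growth, was by far the most abundant, at 19.3 FPKM. It made up 55.0% ± 0.937 of the summed FPKM of the 19 ligand genes, with a range of 54.1% to 56.6% over the 6 libraries. Wnt7a, its closest relative, followed with 10.5% ± 1.66, Wnt4 with 8.41% ± 0.793 and Wnt9a with 6.47% ± 1.90. Wnt5a, the best studied ligand of the branches without β-catenin, was at 1.65 FPKM. The other ligands lay between 0 and 1.01 FPKM.

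None of the 14 tested ligands was called by edgeR, DESeq2 or limma-voom, and 1, Wnt9b, had an unadjusted p under 0.05. DESeq2 gave no adjusted p for some low-count genes, Wnt9b among them, and could not call those. Sfrp1 had none either, at means of 3.86 CPM in cKO and 4.58 CPM in Ctrl, and several ligands lay below that level. For scarce ligands the absence of a DESeq2 call may therefore not be a test result. Wnt7b stood at 96.6, 104 and 88.7 CPM in cKO and at 93.0, 91.5 and 97.1 CPM in Ctrl. The cKO libraries spanned the whole range of the Ctrl libraries, and the log2 fold change was 0.04 ± 0.06 (edgeR adjusted p = 0.796), or -0.06 after the GC and length correction. AU022754 lies opposite Wnt7b over 2222 bases, and without strand the reads of that stretch cannot be told apart. AU022754 stood at 6.67 ± 0.479 CPM in cKO and 4.75 ± 0.546 CPM in Ctrl (log2 fold change 0.48, edgeR adjusted p = 0.0844). Wnt7a, at 9.35, 13.7 and 11.7 CPM in cKO and 9.48, 12.9 and 13.6 CPM in Ctrl, also overlapped between the groups (log2 fold change -0.05 ± 0.15, adjusted p = 0.910). The summed level of all ligands was 35.5 ± 2.26 FPKM in cKO and 34.7 ± 1.24 FPKM in Ctrl.

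Wnt9b was the ligand with an unadjusted p under 0.05 (0.0252). It stood at 2.78, 2.69 and 3.18 CPM in cKO and at 2.09, 2.25 and 1.71 CPM in Ctrl. The groups did not overlap, but the levels rested on 33 to 59 counts per library, and the log2 fold change of 0.52 ± 0.21 had an edgeR adjusted p of 0.203. Wnt9a was at 11.6 CPM in cKO replicate 1, above all other libraries, which lay between 5.17 and 8.29 CPM. Wnt11 had the largest log2 fold change of any member, 1.02 ± 0.53 with an edgeR adjusted p of 0.347, from 16, 12 and 14 counts in cKO and 3, 2 and 16 in Ctrl. Its Ctrl replicate 3 held as many counts as the highest cKO library, and Wnt11 was called only in the fit without that control (log2 fold change 2.38, edgeR adjusted p = 0.0451, where the alternatives that gave an adjusted p ran from 0.0451 to 0.637). Wnt11, Wnt9a and the ligand pairs that follow were chosen after their values were seen.

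The 5 ligand genes under the filter were Wnt1, Wnt3a, Wnt6, Wnt8a and Wnt8b. Wnt3a, which the mouse embryo needs to form a hippocampus, had 0 counts in all 6 libraries, and 3 counts over the pooled total would be 0.0285 CPM, a limit that covers counting error only. Wnt8a had 1 count in all, Wnt6 0 to 4 per library, Wnt1 2 to 10 and Wnt8b 6 to 14. Several ligand genes lie in neighbouring pairs on a chromosome. Wnt3a at 0 and Wnt9a at 2.27 FPKM lie 16.2 kb apart on chromosome 11, and Wnt6 at 0.0432 and Wnt10a at 0.873 FPKM lie 6.19 kb apart on chromosome 1. The members of the pairs Wnt9b and Wnt3 (0.539 and 0.545 FPKM, 24.3 kb apart on chromosome 11) and Wnt10b and Wnt1 (0.180 and 0.146 FPKM, 11.7 kb apart on chromosome 15) were at similar low levels.

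**Figure D4:**
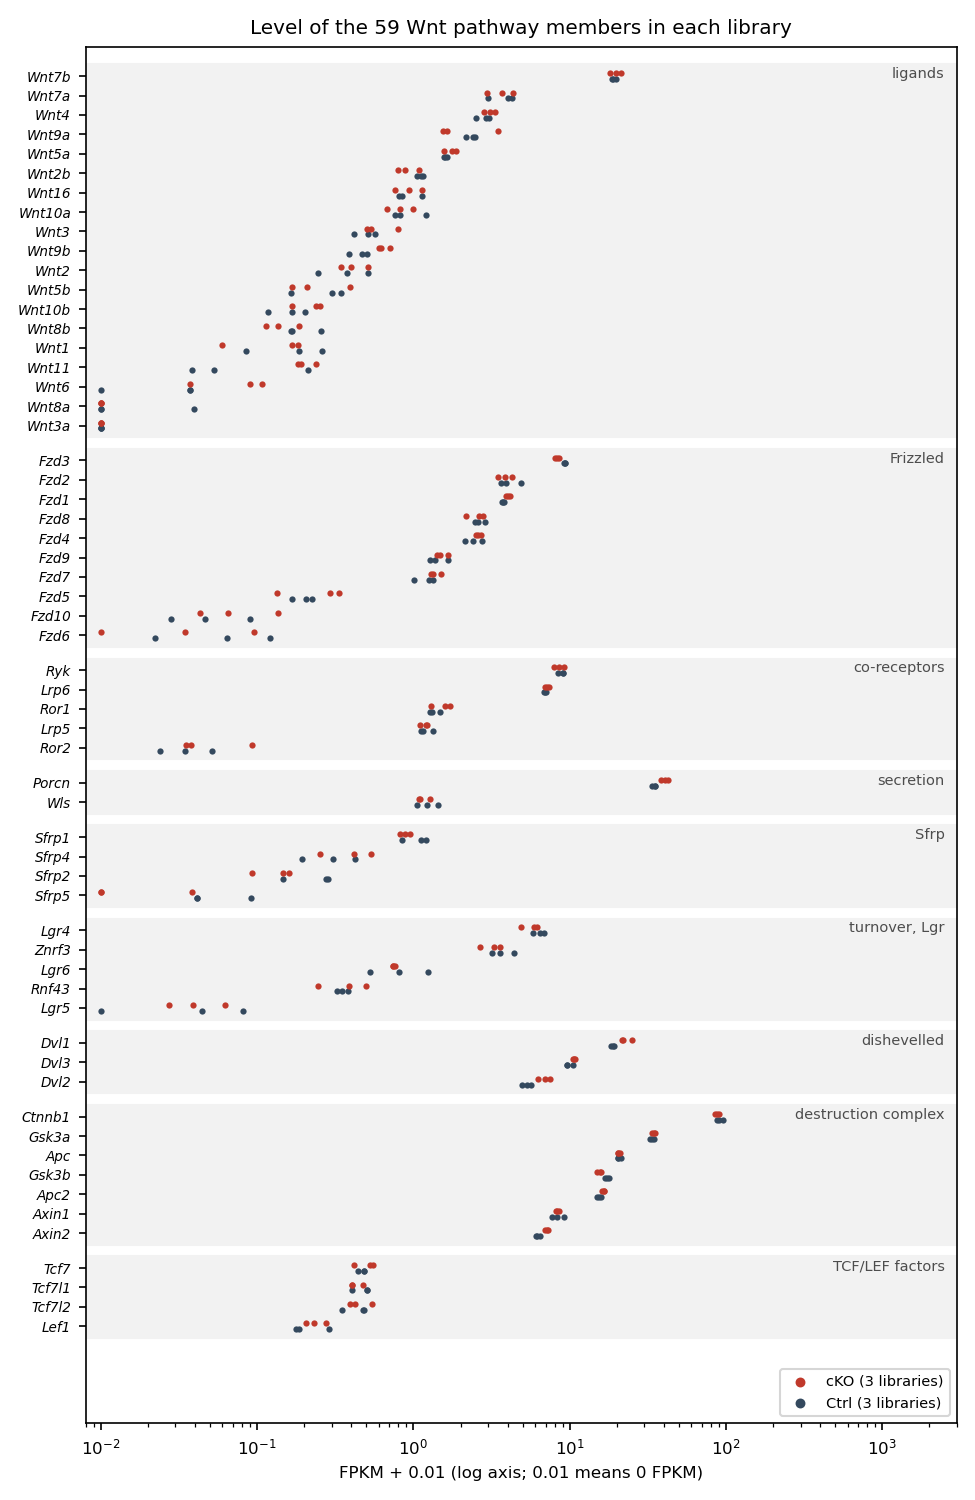
Level of all 59 genes in each of the 6 libraries, in FPKM plus 0.01 on a log axis, ordered within each role by mean level. Red points are cKO libraries and dark points Ctrl libraries, and a point at 0.01 stands for 0 FPKM. Ctnnb1 is the highest of all at 89.2 FPKM, Wnt7b the highest ligand at 19.3 FPKM, and the TCF/LEF factors all lie at or below 0.474 FPKM on average.

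Among receptors Fzd3, a Frizzled protein best known for axon guidance through planar polarity signalling, was the most abundant Frizzled gene. It gave 35.4% ± 2.21 of the summed FPKM of 10 Frizzled genes, ahead of Fzd2 with 16.1% ± 1.54 and Fzd1 with 15.6% ± 0.936. Fzd6 and Fzd10 did not pass the filter, with 0 to 9 and 1 to 7 counts per library. None of the 8 tested Frizzled genes was called by edgeR or limma-voom, DESeq2 called Fzd3, and 1 gene had an unadjusted p under 0.05.

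That gene was Fzd3, with 103.8, 109 and 106 CPM in cKO and 119.7, 119.9 and 118 CPM in Ctrl. Every cKO library was lower than every Ctrl library, and the Ctrl libraries lay close together. The log2 fold change was -0.17 ± 0.04, the unadjusted p 0.00205 and the edgeR adjusted p 0.0506, just outside the threshold. Over the 17 alternatives the adjusted p of Fzd3 ran from 0.0288 to 0.179, and 6 of them called it, none of which left out a library. After the GC and length correction the log2 fold change was -0.15 and the adjusted p 0.103. At a GC content of 40.3% the transcript was among the poorest in G and C of the tested members.

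Fzd2 stood at 15.8, 14.2 and 12.8 CPM in cKO and at 18.1, 13.2 and 14.3 CPM in Ctrl, with overlap between the groups (log2 fold change -0.09 ± 0.12, edgeR adjusted p = 0.772). Fzd1 had every cKO library above every Ctrl library, at 16.9 ± 0.506 and 15.7 ± 0.209 CPM, but its log2 fold change of 0.11 ± 0.08 had an edgeR adjusted p of 0.560. The summed Frizzled level was 24.5 ± 0.927 FPKM in cKO and 25.1 ± 1.01 FPKM in Ctrl.

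Of the co-receptors Lrp6, which binds Wnt together with Frizzled, gave 38.4% ± 1.47 of the summed FPKM of its class, and Ryk, an atypical receptor tyrosine kinase with a Wnt-binding domain, gave 47.2% ± 1.69. Lrp5, the relative of Lrp6, was at 1.18 FPKM against 7.05 FPKM for Lrp6. Ryk stood at 36.1, 41.8 and 38.8 CPM in cKO and at 38.5, 40.9 and 41.0 CPM in Ctrl, and Lrp6 at 97.9, 95.4 and 102 CPM in cKO and at 95.1, 97.0 and 93.6 CPM in Ctrl. The groups overlapped for both, with log2 fold changes of -0.05 ± 0.07 for Ryk and 0.05 ± 0.05 for Lrp6 (edgeR adjusted p = 0.784 and 0.659). None of the 4 tested receptors of this class was called by edgeR, DESeq2 or limma-voom and none had an unadjusted p under 0.05. Ror2, a receptor of Wnt5a, had 1 to 6 counts per library, whereas its relative Ror1 was at 1.44 FPKM.

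Receptor supply at the membrane is set by the ubiquitin ligases Znrf3 and Rnf43, which remove Frizzled, and by the Lgr receptors, which with R-spondins inhibit the ligases. Lgr4 gave 56.6% ± 3.47 and Znrf3 32.2% ± 3.8 of the summed FPKM of this class, while Lgr5, a stem cell marker in the gut, had 0 to 14 counts per library and was not tested. Lgr4 stood at 28.9, 35.1 and 36.5 CPM in cKO and at 34.6, 40.5 and 38.2 CPM in Ctrl. Znrf3 stood at 26, 28.4 and 21.0 CPM in cKO and at 28.3, 34.5 and 24.9 CPM in Ctrl. Both had a lower mean in cKO with overlap between the groups, at log2 fold changes of -0.17 ± 0.09 and -0.22 ± 0.12 (edgeR adjusted p = 0.322 and 0.375). The 4 tested genes of the class had a median of -0.18 and none was called by edgeR, DESeq2 or limma-voom, or had an unadjusted p under 0.05. Whether the scarce Rnf43 had a DESeq2 adjusted p is not given here.

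The Sfrp genes encode secreted antagonists that bind Wnt ligands, and they were all scarce, with Sfrp1 the highest at 0.961 FPKM. Sfrp1 stood at 3.85, 3.58 and 4.15 CPM in cKO and at 4.89, 3.67 and 5.19 CPM in Ctrl (log2 fold change -0.25 ± 0.17, edgeR adjusted p = 0.507). Sfrp4 stood at 1.72, 1.02 and 2.21 CPM in cKO and at 1.73, 0.770 and 1.25 CPM in Ctrl (0.41 ± 0.34, adjusted p = 0.594). The groups overlapped for both genes. Sfrp2, with 14 counts in all cKO and 26 in all Ctrl libraries, and Sfrp5, with 1 and 5, were under the filter. The family's symbol Sfrp3 is listed as Frzb, a Wnt antagonist of mature granule neurons in work on mice, and so is no member. Frzb was far more abundant than the Sfrp genes at 18.2 FPKM, and stood at 59.3 ± 0.843 CPM in cKO and 58.8 ± 0.955 CPM in Ctrl (0.01, edgeR adjusted p = 0.942).

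The destruction complex binds and marks β-catenin, whose gene had the most abundant transcript of the 59. In this class edgeR called none of the 7 genes, of which 3 had an unadjusted p under 0.05. DESeq2 called Gsk3b and limma-voom 0. Ctnnb1, which encodes β-catenin, reached 89.2 FPKM and made up 46.7% ± 1.32 of the summed FPKM of the class. It stood at 471, 441 and 455 CPM in cKO and at 500.1, 456 and 468 CPM in Ctrl. The groups overlapped, and the log2 fold change was -0.06 ± 0.04 (edgeR adjusted p = 0.541). Apc, the scaffold lost in colon cancer, stood at 325 ± 4.13 CPM in cKO and 326 ± 7.29 CPM in Ctrl, a log2 fold change of 0.00 ± 0.04, and Axin1 at 32.0 ± 0.866 and 32.3 ± 2.81 CPM.

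Gsk3a and Gsk3b are the kinases of the complex. Gsk3b stood at 157, 148 and 155 CPM in cKO and at 176, 171 and 165 CPM in Ctrl, with every cKO library lower than every Ctrl library. Its log2 fold change was -0.15 ± 0.04 (edgeR adjusted p = 0.0675), and the value after the GC and length correction was -0.16 (adjusted p = 0.0679). Gsk3b was called by DESeq2 and with no low-count filter, and over the 17 alternatives its adjusted p ran from 0.0316 to 0.213. Gsk3a, the more abundant paralog at 34.1 against 16.4 FPKM, stood at 98.1, 102 and 103 CPM in cKO and at 95.1, 98.0 and 100.3 CPM in Ctrl. Its groups overlapped, and the log2 fold change was 0.04 ± 0.05 (edgeR adjusted p = 0.695), or -0.04 after the GC and length correction. Whether the change of Gsk3b differed from that of Gsk3a was not tested.

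Axin2, both a scaffold of the complex and the most widely used readout of β-catenin signalling, stood at 38.2, 39.9 and 39.4 CPM in cKO and at 34.2, 33.4 and 35.5 CPM in Ctrl. Every cKO library was above every Ctrl library, but the log2 fold change of 0.19 ± 0.06, with an unadjusted p of 0.00727, had an edgeR adjusted p of 0.102 and was called in none of the alternatives. Apc2, the neuronal relative of Apc, stood at 183, 189 and 188 CPM in cKO and at 168, 173 and 179 CPM in Ctrl. Here too the groups did not overlap, at a log2 fold change of 0.10 ± 0.04 (edgeR adjusted p = 0.212). After the GC and length correction Axin2 stood at 0.13 and Apc2, a transcript of 61.4% GC, at -0.02.

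The TCF/LEF factors, the DNA-binding partners of β-catenin, were all scarce. Mean levels were 0.474 FPKM for Tcf7, 0.441 for Tcf7l1, 0.434 for Tcf7l2 and 0.218 for Lef1. This order depends on the deposited gene length, 8739 bases for Tcf7l2 and 2625 for Tcf7. In CPM, Tcf7l2 was the highest of the 4, with means of 3.88 in cKO and 3.74 in Ctrl. Tcf7 stood at 1.36, 1.43 and 1.08 CPM in cKO and at 1.25, 1.24 and 1.14 CPM in Ctrl, and Tcf7l1 at 1.83, 1.55 and 1.56 CPM in cKO and at 1.97, 1.96 and 1.56 CPM in Ctrl. The groups overlapped for both, and log2 fold changes of the 4 genes lay between -0.14 and 0.14. None was called by edgeR, DESeq2 or limma-voom, or had an unadjusted p under 0.05. DESeq2 gave no adjusted p for Tcf7 and Tcf7l1, so it could not call them. Whether Tcf7l2 and Lef1, which were also scarce, had a DESeq2 adjusted p is not given here.

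**Figure D5:**
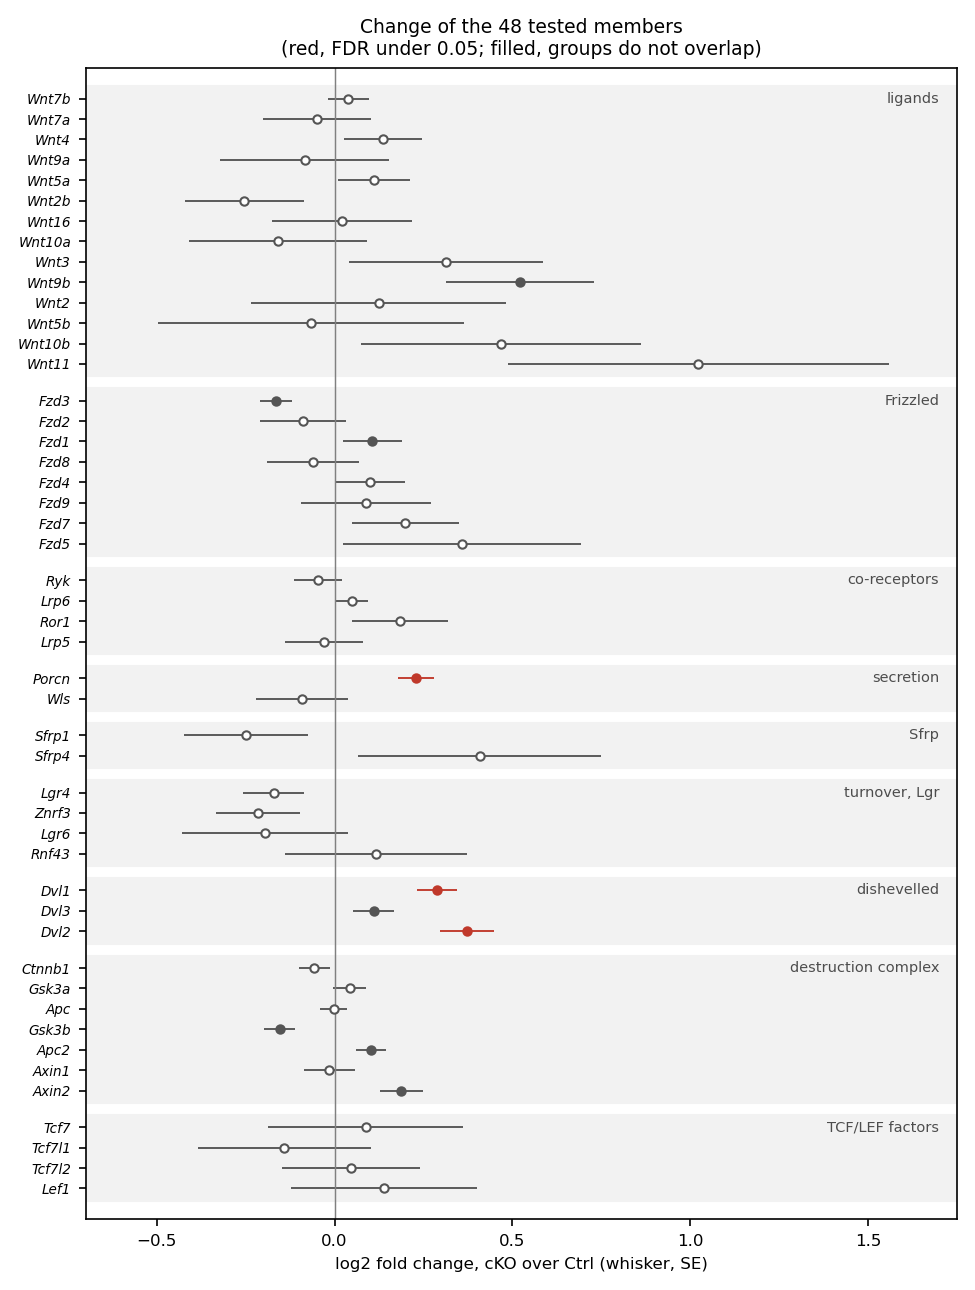
Log2 fold change (cKO over Ctrl, horizontal axis) of the 48 tested members, grouped by role, with whiskers for the standard error. Red points were called by edgeR, and filled points have groups that do not overlap. The red points are Dvl1 at 0.29, Dvl2 at 0.37 and Porcn at 0.23, and the wide whiskers belong to scarce genes such as Wnt11 at 1.02 ± 0.53.

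Further genes of the pathway that are no members were taken from lists of secreted modulators, cytoplasmic regulators, nuclear partners of β-catenin, common transcriptional targets and planar polarity genes. Of 122 such genes 108 were tested, 2 rose and 1 fell, or 2.78% against 3.95% of all tested genes, with a median log2 fold change of -0.01. Among 25 nuclear partners Tle2, a co-repressor of the Groucho family that binds TCF/LEF factors, rose. It stood at 22.8, 22.5 and 26.7 CPM in cKO and at 14, 16 and 20.4 CPM in Ctrl. The groups did not overlap, and Ctrl replicate 3 was the highest control. The log2 fold change was 0.51 ± 0.12 (edgeR adjusted p = 0.0259). The most abundant partners, Aes and Ctbp1, both co-repressors, had log2 fold changes of -0.05 and -0.01 (edgeR adjusted p = 0.566 and 0.932).

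Among 24 tested planar polarity genes 1 rose and 1 fell. The scaffold gene Scrib stood at 55.6, 62.8 and 60.8 CPM in cKO and at 44.2, 46.7 and 53.1 CPM in Ctrl, without overlap, a log2 fold change of 0.31 ± 0.07 with an edgeR adjusted p of 0.0235. Rac1, a small GTPase of the actin cytoskeleton that dishevelled can activate, stood at 217, 215 and 203 CPM in cKO and at 255, 229 and 245 CPM in Ctrl. Every cKO library of Rac1 was below every Ctrl library, at a log2 fold change of -0.20 ± 0.05 (edgeR adjusted p = 0.0305). After the GC and length correction Rac1 kept its call (-0.19, adjusted p = 0.0457), while Tle2 (0.41, adjusted p = 0.0702) and Scrib (0.20, adjusted p = 0.103) did not. None of the 3 was called without cKO replicate 3 or without the library labelled Ctrl replicate 1. Tle2 was also not called without Ctrl replicate 2, Scrib without cKO replicate 2 or Ctrl replicate 2, and Rac1 without cKO replicate 1, cKO replicate 2 or Ctrl replicate 3. Prickle2, the second most abundant gene of this list, stood at -0.08 (adjusted p = 0.399).

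None of the 18 tested secreted modulators was called by edgeR, DESeq2 or limma-voom, and 4 had an unadjusted p under 0.05. DESeq2 gave no adjusted p for some low-count genes, and the scarce genes of this list may be among them. The most abundant were Dkk3, at 28.8 FPKM and a log2 fold change of -0.14 (edgeR adjusted p = 0.544), and Tmem198, at 0.14 (adjusted p = 0.224). EdgeR called none of 34 cytoplasmic regulators, 5 of which had an unadjusted p under 0.05. Both DESeq2 and limma-voom called 1, Ppp2ca, which encodes a catalytic subunit of protein phosphatase 2A and is named here because of that call. Ppp2ca was at 261 ± 8.09 CPM in cKO and 293 ± 13.6 CPM in Ctrl, a log2 fold change of -0.16 with an edgeR adjusted p of 0.0519. The most abundant of that list, the phosphatase scaffold gene Ppp2r1a and the ubiquitin ligase gene Fbxw11, had log2 fold changes of -0.10 and -0.03 (adjusted p = 0.253 and 0.715).

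Common transcriptional targets of β-catenin, a list that holds some members such as Axin2, had a median log2 fold change of 0.06 over 15 tested genes. DESeq2 gave no adjusted p for Tcf7, which this list holds, and other scarce genes of the list may lack it too. None of the 15 was called by edgeR, DESeq2 or limma-voom, and 3 had an unadjusted p under 0.05. Every cKO library lay above every Ctrl library for 3 of them (Axin2, Apcdd1 and Bambi) and below for 1 (Neurod1), 26.7% of the list beside 22.9% of all tested genes. The most abundant were Prox1, the transcription factor of granule neuron identity, at -0.04 (edgeR adjusted p = 0.649), and Neurod1, a factor of their maturation, at -0.10 (adjusted p = 0.356). Bambi, a pseudoreceptor gene chosen for its values, stood at 20.5 ± 0.853 CPM in cKO and 17.2 ± 1.05 CPM in Ctrl (0.25, edgeR adjusted p = 0.106), while Tnfrsf19 was at -0.22 (adjusted p = 0.129) with overlap.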

How the data were processed

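For 6 RNA-seq libraries, made with an NEBNext Ultra RNA kit per the labels' protocols, the authors deposited raw counts per gene and FPKM. The genome was GRCm38 and the tools were featureCounts 1.5.0-p3, HISAT2 2.0.5 and StringTie 1.3.3b, per the submitters' processing notes. The sources used here do not give the annotation release or whether strand was used. A deposited FPKM value is the count over gene length and over a constant that is 99.8% to 101% of the library total.

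Groups came from the sample titles, and 0 columns were left unused. The count total per library sets the precision: 3 counts in 1 library are 0.156 to 0.179 CPM. Counts were tested in R 4.3.3 with edgeR 4.0.16 (filterByExpr with a minimum count of 10 and a total of 15, TMM, glmQLFit and glmQLFTest, group as the only term) with Benjamini-Hochberg adjustment over 16928 genes and a threshold of 0.05. Alternatives used DESeq2 1.42.0 and limma 3.58.1 (voom, or limma-trend on log2 of FPKM plus 0.1 or 1). Others changed the scaling or filter, took the replicate number as a block, or left out each library in turn. The last used loess offsets (span 0.3) for GC content, from GENCODE M21 transcripts, and for gene length, as deposited with the counts. DESeq2 gave no adjusted p for some low-count genes, among them Wnt9b, Sfrp1, Sfrp4, Tcf7 and Tcf7l1, and could not call those. Promoter windows came from RefSeq.

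Members were taken by symbol alone, but the members, lists and alternatives were all chosen with earlier results of these data known. Any member could be named. Values per library were given for members called, for those with an unadjusted p under 0.05 and for the 2 of highest mean FPKM in each role, and count ranges for those under the filter. Of the pathway lists every called gene and the 2 of highest FPKM were named, and others are marked.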

Additional observations from a re-analysis of the deposited data

How the results depend on the processing

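Of the Wnt members 3 were called as reported. DESeq2 and the fit with no low-count filter called 5 (adding Fzd3 and Gsk3b), RLE scaling, upper-quartile scaling, the filter of 1 CPM in 3 libraries and protein-coding genes only called 4 (adding Fzd3), the GC and length correction called 1, and limma-trend on log2(FPKM + 0.1) or log2(FPKM + 1) called 0. Leaving out 1 library gave 0 to 3. All genes called were 668 as reported, 1155 with no filter, 110 and 95 by limma-trend with pseudocounts of 0.1 and 1, 444 after the GC and length correction, and 214 to 535 with 1 library left out, the lowest without cKO replicate 3 (214), then without Ctrl replicate 2 (355) and cKO replicate 2 (427). With the replicate number as a block 3 members and 808 genes were called; deviations of same-numbered libraries correlated at 0.0914, 0.018 and 0.0085, not every library correlated best with its own number, and the labels do not say that numbers pair the samples. Cytoplasmic regulators had 0 calls as reported and 1 under RLE and upper-quartile scaling, DESeq2, limma-voom, no filter, the 1 CPM filter, protein-coding genes only and the replicate block (Ppp2ca) and after the GC and length correction (Cxxc5), and 0 to 1 with a library omitted. Common targets had 1 call (Tnfrsf19) with no filter, with the replicate block and without Ctrl replicate 1, and otherwise 0. Nuclear partners had 1 call as reported and 0 under both FPKM settings and the GC and length correction, and 0 to 1 with 1 library left out. Planar polarity genes had 2 as reported, 0 under both FPKM settings, 1 after the GC and length correction and 0 to 1 with 1 library left out. Signs changed for 7 of the 26 genes followed one by one (the members given per library and the called pathway genes). Of the other tested genes 12 of 25 members, reported at -0.20 to 0.12, and 43 of 105 pathway genes, reported at -0.14 to 0.22, changed sign under at least 1 alternative, none of them called with the changed sign. With 1 library left out Wnt7a ran from -0.19 to 0.080 (0.080 without cKO replicate 1 and 0.052 without Ctrl replicate 3), Wnt7b from -0.020 to 0.096, Fzd2 from -0.18 to 0.052, Ryk from -0.10 to 0.0035 and Wls from -0.19 to 0.031. The GC and length correction gave -0.060 for Wnt7b, -0.019 for Apc2 and -0.044 for Gsk3a. The causes were not tested. Depth limits the 11 members under the filter.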

Other observations

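Celsr3, a planar polarity gene of neurons, was listed with 0 counts in all 6 libraries, but the annotation release and strand setting behind the counting are unknown, and this was not read as a level of expression. Its relative Celsr2, at 360 ± 10.7 CPM in cKO and 333 ± 7.42 CPM in Ctrl, had a log2 fold change of 0.11 with an edgeR adjusted p of 0.131. Bcl9, a nuclear partner that tethers co-activators to β-catenin, stood at 67.1 ± 1.20 CPM in cKO and 59 ± 2.76 CPM in Ctrl, without overlap (0.19, edgeR adjusted p = 0.0688). Fuz, a gene of planar polarity and cilia, stood at 21.0 ± 1.27 and 17.1 ± 1.69 CPM (0.30, adjusted p = 0.0857). Ndp, the gene of the Frizzled4 ligand norrin, stood at 7.82 ± 0.777 and 9.84 ± 0.240 CPM (-0.33, adjusted p = 0.155). Adgra2, a co-receptor for Wnt7 ligands in brain endothelium, stood at 17.8 ± 0.750 and 15.2 ± 1.06 CPM (0.22, adjusted p = 0.193), and 12 endothelial markers summed to 269.6 to 272.3 CPM in cKO and 231.6 to 273.1 CPM in Ctrl with 0 called by edgeR and 1 at an unadjusted p under 0.05. These genes were chosen after their values were seen, and the part of other cell types in them was not tested.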
